A study of Mus musculus with 12 samples.

Results

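The left ventricles (LVs) of Hif1a+/- offspring from diabetic pregnancy were compared with those of Hif1a+/- offspring from non-diabetic pregnancy, 3 animals against 3. These are 6 of the 12 samples of a series that also holds 3 Wt animals from each kind of pregnancy. The features are all genes with 10 or more counts in at least 3 of the 6 Hif1a+/- samples, which left 14471 of the 46983 genes in the count files. All animals were of the inbred FVB strain and 12 weeks old, and all had a Wt mother. The mothers in the diabetic groups had been made diabetic with streptozotocin, which destroys insulin-producing beta cells, before they were mated with non-diabetic Hif1a+/- males. The Hif1a+/- offspring of both groups therefore share the same allele, a heterozygous null mutation of Hif1a in every cell of the body that comes from the father, and the groups differ in the pregnancy they came from. The animals came from several litters per group, and the sources do not tie an animal to a litter or a mother. The name diabetes-exposed is used for the offspring of diabetic mothers and unexposed for the others. The unexposed animals are numbered 14, 32 and 44 and the diabetes-exposed animals 66, 72 and 77, and values are given in that order.

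Hif1a codes for HIF-1α, the oxygen-regulated subunit of hypoxia-inducible factor 1. In normal oxygen, prolyl hydroxylases mark HIF-1α for destruction, and when oxygen is low it accumulates, pairs with HIF-1β and binds short DNA motifs beside genes of glycolysis, blood vessel growth and matrix remodelling. Maternal diabetes exposes the fetus to high glucose, low oxygen and oxidative stress at the time the heart forms, and the study asked whether a lower dose of Hif1a changes what such a pregnancy leaves behind in the adult heart. The comparison within Hif1a+/- hearts holds the genotype constant and asks what differs with the pregnancy.

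The 6 libraries held between 18010492 and 39812939 counts on genes. The 3′-seq protocol sequences only the 3′ part of each transcript. Levels are given in CPM, the counts of a gene scaled to a common library total after TMM scaling, so they compare a gene between animals and not one gene with another. Hif1a itself, on chromosome 12 of GRCm38 from 73901375 to 73947530, was at 89.3, 78.7 and 88.9 CPM in unexposed and 70.5, 64.8 and 81.4 CPM in diabetes-exposed animals. The 2 ranges overlapped, and the log2 fold change of -0.25 ± 0.12 (SE) had an edgeR adjusted p of 0.434. The Wt animals were lower than the Hif1a+/- animals in both kinds of pregnancy, at 55.7, 57.1 and 71.8 CPM without and 48, 59.3 and 58.7 CPM with maternal diabetes, without overlap between the genotypes. The level of Hif1a therefore runs against a loss of 1 copy. Reads from the 3′ end also count a transcript of the mutated allele if one is made, so this level does not check the genotype, which rests on the labels. The labels give the animals as female, whereas the paper and the series' design text give them as male. Animal 72 had 158 CPM of Xist, which is transcribed from the inactive X chromosome of females, against 0.231 to 6 in the 11 other libraries of the series, and the Y-linked genes Ddx3y, Uty, Kdm5d and Eif2s3y were under 0.5 CPM in it and at 15 or more in all the others. Animal 72 was kept, and counts are also given without it. As a check of the tissue, the 15 ventricular myocyte genes summed to between 125000 and 138000 CPM in unexposed and between 129200 and 138000 CPM in diabetes-exposed animals.

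The diabetes-exposed Hif1a+/- hearts had higher mean levels of macrophage, complement and chemokine genes and of genes of adventitial fibroblasts and the elastic fibre, and lower mean levels of many long transcripts, among them those of chromatin regulators. How many single genes were called depended on the test. By edgeR's quasi-likelihood test, 0 of the 14471 genes had an adjusted p under 0.1, or 0% in either direction, and the smallest adjusted p was 0.125, shared by 9 genes. At an unadjusted p under 0.05, 833 genes had a higher mean after diabetic pregnancy (5.76%) and 911 a lower mean (6.3%). DESeq2 on the same 12 samples, the tool of the study, called 146 genes higher (1.01%) and 62 lower (0.428%), or 1.44% in all, at an adjusted p under 0.1. limma-voom with sample quality weights called 488 higher and 518 lower, and edgeR on the 6 Hif1a+/- samples alone called 43 higher (0.297%) and 56 lower (0.387%), or 0.684% in all. The genes named below as called are those called by DESeq2, and the term is not used of any other test.

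Of the 146 genes that DESeq2 called higher, 140 had all 3 diabetes-exposed animals above all 3 unexposed animals, and all 62 called lower had all 3 below. Over all genes tested this separation was seen for 1605 genes above (11.1%) and 1943 below (13.4%). The median log2 fold change was 0.76 among the genes called higher, -0.44 among those called lower and -0.01 over all genes tested. The genes called higher spanned log2 fold changes from 0.22 to 2.94, and those called lower from -0.28 to -1.66. Without animal 72, DESeq2 called 146 genes higher (1.01%) and 25 lower (0.173%), and 101 and 17 of these were among the genes called with all animals. Of the 208 genes, 144 of those higher and 60 of those lower were protein-coding.

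**Figure D1:**
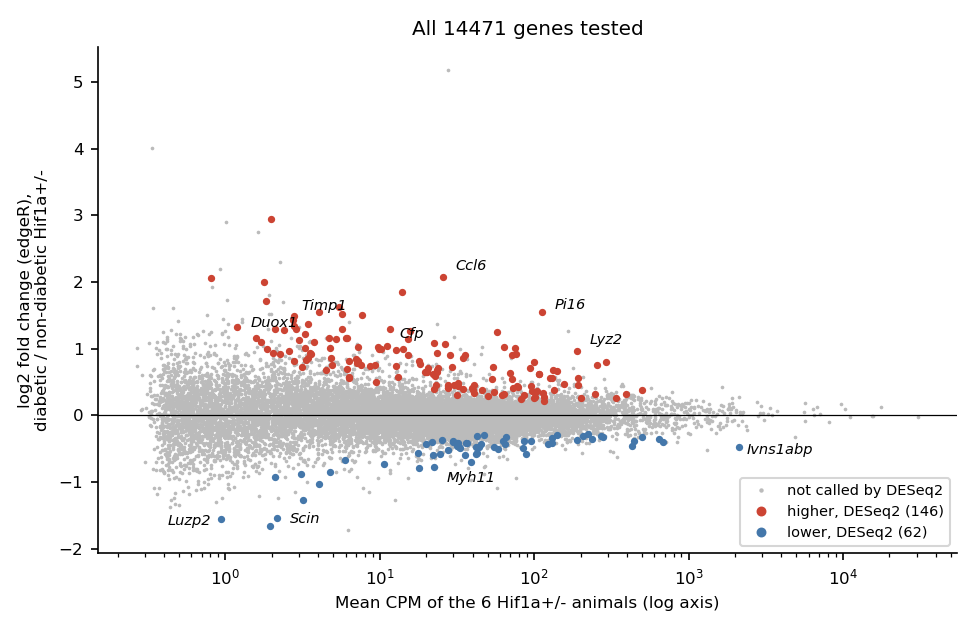
Each point is 1 of the 14471 genes tested, with its mean CPM over the 6 Hif1a+/- animals on a log axis and its log2 fold change (diabetic over non-diabetic pregnancy, edgeR) on the vertical axis. The 146 genes called higher by DESeq2 are in red and reach up to 2.94, and the 62 called lower, in blue, down to -1.66.

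Among protein-coding genes with a higher mean, Cfp and Timp1 had the smallest p. Cfp codes for properdin, which stabilises the C3 convertase of the alternative complement pathway. It was at 7.36, 6.14 and 8.35 CPM in unexposed and 16.3, 15.2 and 13.4 CPM in diabetes-exposed animals. Every diabetes-exposed animal was above every unexposed one, with a log2 fold change of 1.04 ± 0.16 (SE), an edgeR adjusted p of 0.125 and a DESeq2 adjusted p of 6.35e-06. Timp1 codes for a secreted inhibitor of matrix metalloproteinases. Its levels were 1.71, 1.18 and 1.46 CPM in unexposed and 4.52, 3.04 and 4.77 CPM in diabetes-exposed animals, again without overlap. The log2 fold change was 1.49 ± 0.24 (SE), with adjusted p values of 0.125 by edgeR and 0.000524 by DESeq2. Timp1 and Cfp are neighbours on the X chromosome, with 61389 bases between their starts and transcripts on opposite strands. Without animal 72 both remained called, at DESeq2 adjusted p values of 3.63e-05 for Timp1 and 0.000145 for Cfp. Over the 16 alternatives that gave an adjusted p, Cfp ranged from 1.07e-06 to 0.58 and Timp1 from 3.05e-05 to 0.58.

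The promoters of 4 genes are shown because these genes led the comparison: Timp1 and Cfp had the smallest p among genes with a higher mean, Ivns1abp the smallest among genes with a lower mean, and Duox1 was also called in the test of a genotype by pregnancy interaction. Each is the 250 bases before the transcript start in RefSeq (GRCm38.p6), written 5′ to 3′ on the gene's own strand: Timp1 at chrX:20869916-20870165 on the plus strand, Cfp at chrX:20931556-20931805 on the minus strand, Duox1 at chr2:122315422-122315671 on the plus strand and Ivns1abp at chr1:151344236-151344485 on the plus strand. Capitals mark the letters ACGTG or GCGTG, the core to which HIF-1 binds, on either strand, where a match on the other strand reads CACGT or CACGC.
Timp1: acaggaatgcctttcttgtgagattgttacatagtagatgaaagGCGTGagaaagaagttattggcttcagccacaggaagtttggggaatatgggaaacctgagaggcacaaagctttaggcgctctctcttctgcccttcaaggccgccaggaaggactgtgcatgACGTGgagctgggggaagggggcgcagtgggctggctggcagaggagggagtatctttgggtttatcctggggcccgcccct
Cfp: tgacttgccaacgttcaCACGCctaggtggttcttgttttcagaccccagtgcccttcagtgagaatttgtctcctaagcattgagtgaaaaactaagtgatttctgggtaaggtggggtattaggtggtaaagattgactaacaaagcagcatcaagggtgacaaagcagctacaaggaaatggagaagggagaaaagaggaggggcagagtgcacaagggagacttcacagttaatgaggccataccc
Duox1: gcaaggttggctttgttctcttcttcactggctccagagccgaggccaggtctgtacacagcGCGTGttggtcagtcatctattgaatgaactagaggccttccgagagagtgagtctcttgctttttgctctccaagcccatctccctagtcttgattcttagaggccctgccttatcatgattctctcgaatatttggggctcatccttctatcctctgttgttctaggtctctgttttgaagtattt
Ivns1abp: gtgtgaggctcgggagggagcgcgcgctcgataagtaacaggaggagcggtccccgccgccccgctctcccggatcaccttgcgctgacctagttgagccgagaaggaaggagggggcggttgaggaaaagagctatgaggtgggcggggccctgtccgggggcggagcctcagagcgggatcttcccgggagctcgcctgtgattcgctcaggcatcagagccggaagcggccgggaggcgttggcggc
Timp1 held GCGTG from -206 to -202 and ACGTG from -82 to -78, counted from the transcript start, Duox1 held GCGTG from -188 to -184, and Cfp held 1 match on the other strand from -233 to -229. Ivns1abp held neither motif in this window. Such matches were common: of the 10779 tested genes with a promoter sequence, 55.7% held at least 1 of the 2 motifs, at a median GC content of 60%. The share was 37.5% among 104 genes called higher, whose median GC content was 55.2%, and 52.3% among 44 genes called lower, at 59.8%. A match is a description of the letters and not a site of binding or a cause.

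The next genes by p came from secreted and myeloid proteins. Ccl6, a CC chemokine of myeloid cells on chromosome 11, was at 10.9, 8.9 and 9.65 CPM in unexposed and 60.2, 26.5 and 37.3 CPM in diabetes-exposed animals. The groups were far apart, at a ratio of means of 4.21 and a log2 fold change of 2.07 ± 0.36 (SE), and the 3 diabetes-exposed animals also differed widely among themselves. Clec3b, which codes for the plasminogen-binding protein tetranectin, was at 49.5, 57 and 51.5 CPM against 71.2, 109 and 118 CPM, with a log2 fold change of 0.91 ± 0.16 (SE). Lmcd1, a LIM domain cofactor of transcription in cardiac muscle, showed a smaller and more uniform difference, from 62, 67.8 and 66.6 CPM to 90.4, 93 and 82.8 CPM. Its log2 fold change was 0.44 ± 0.08 (SE).
Ccdc80, a secreted matrix-associated protein, had a log2 fold change of 0.62 ± 0.11 (SE), and Capg, an actin-capping protein of macrophages, one of 0.78 ± 0.14 (SE). Igfbp4, which binds insulin-like growth factors, differed by 0.56 ± 0.11 (SE) and Nbl1, an antagonist of bone morphogenetic proteins, by 0.65 ± 0.12 (SE). None of these 4 genes overlapped between the groups, and DESeq2 called all of them, with adjusted p values between 0.000527 and 0.00147. The neutrophil chemokine Cxcl5 was near the detection limit in unexposed animals, at 0, 0.0563 and 0.0503 CPM, and at 0.257, 0.748 and 0.882 CPM in diabetes-exposed animals. No library held more than 20 counts of it, and it passed the filter on low counts through the diabetes-exposed animals alone, so its difference is given without a test. The genes named here and below for the smallest p in each direction over all protein-coding genes kept that direction in every alternative run. Except for Syne1, at 0.852, the highest adjusted p that these genes reached was 0.58 or 0.618. Some genes named for the smallest p within a list, such as Ttn and Tnni3, reached higher values.

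**Figure D2:**
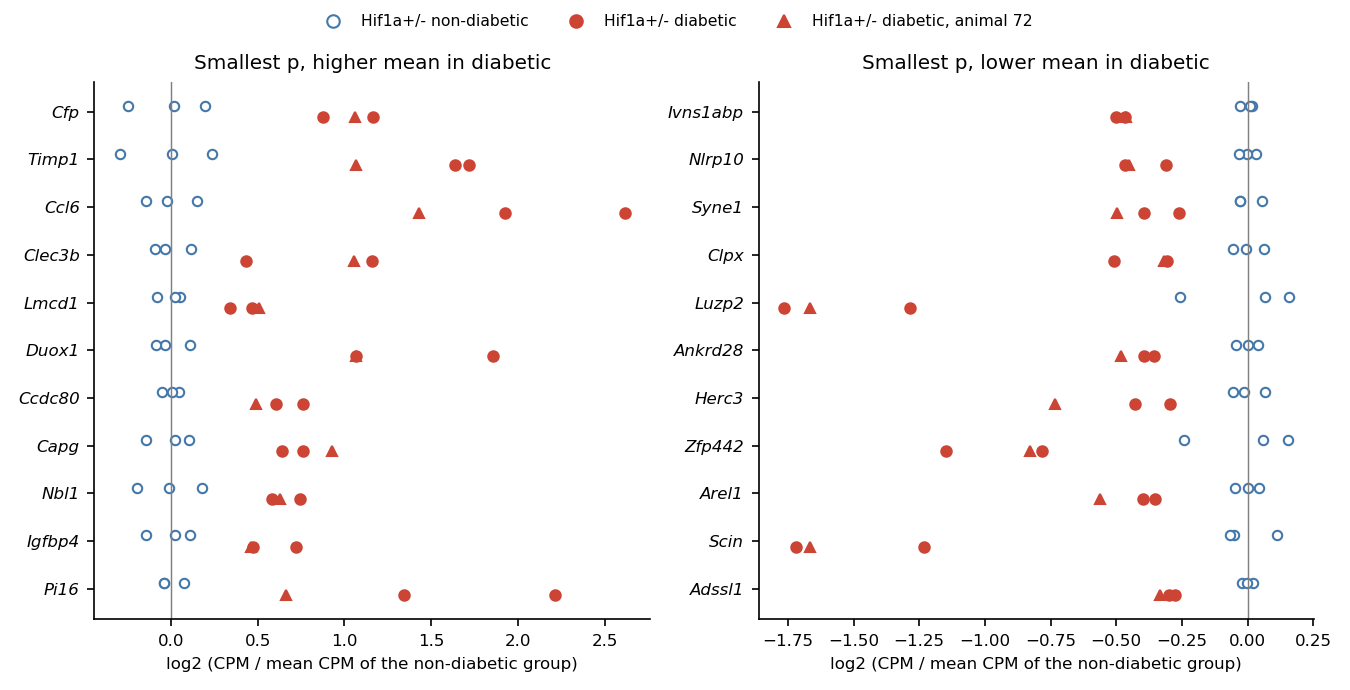
Level of each gene in each Hif1a+/- animal as log2 of its CPM over the mean of the 3 non-diabetic animals, for the protein-coding genes with the smallest edgeR p (11 with a higher mean on the left, 11 with a lower mean on the right, Cxcl5 left out because a library is at 0). Open circles are animals from non-diabetic pregnancy, filled marks animals from diabetic pregnancy and the triangle animal 72, and the 2 groups do not overlap for any gene shown.

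Resident cardiac macrophages clear dead cells and debris and are marked by scavenger receptors, complement C1q and lysosomal enzymes. Of the 25 resident macrophage markers, 24 had a higher mean after diabetic pregnancy (Mertk did not). All 3 diabetes-exposed animals were above all 3 unexposed ones for 20 markers, against 11.1% of all genes. DESeq2 called 14 of the markers, against 1.01% of all genes called higher. Their median log2 fold change was 0.90. Their summed level was between 481.4 and 703.6 CPM in unexposed and between 937.3 and 1342 CPM in diabetes-exposed animals, while in Wt hearts it was between 632 and 812.6 CPM without and between 647.6 and 1014 CPM with maternal diabetes. In a bulk sample, more cells of a type and more RNA of these genes per cell cannot be told apart. Lyz2, the lysozyme of myeloid cells, was at 146, 101 and 139 CPM in unexposed and 294, 205 and 259 CPM in diabetes-exposed animals. It did not overlap, and its log2 fold change was 0.97 ± 0.21 (SE; DESeq2 adjusted p = 0.00245). Pf4, a chemokine also made by cardiac macrophages, was 1.68 times as high and Laptm5, a lysosomal membrane protein of blood cells, 1.87 times. Adgre1, which codes for the macrophage antigen F4/80, was at 6.78, 5.46 and 8.55 CPM against 10.4, 10.2 and 13.5 CPM. These ranges did not overlap, but neither edgeR (adjusted p = 0.304) nor DESeq2 (adjusted p = 0.139) called it. Without animal 72, DESeq2 called 16 of the 25 markers. Many genes of this list and of the lists below are in the study's own list from the same libraries. The counts of these lists are therefore a description and not independent support.

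Complement is a cascade of plasma proteins that tags cells and debris, and its first component C1q is made largely by tissue macrophages. Of the 16 complement genes tested, 15 had a higher mean and 11 were without overlap, against 11.1% of all genes above. DESeq2 called 7, against 1.01% of all genes called higher, and the median log2 fold change was 1.00. C1qa, C1qb and C1qc lie within 12616 bases of each other on chromosome 4 and belong to the macrophage markers as well. C1qb was at 37.7, 27 and 36.4 CPM in unexposed and 69.3, 60.8 and 112 CPM in diabetes-exposed animals, and animal 77 was far above the other animals. Its log2 fold change was 1.25 ± 0.25 (SE; DESeq2 adjusted p = 0.000527), and that of C1qc was 1.02 ± 0.22 (SE). Cd55, a membrane inhibitor of the complement convertases, was at 8.22, 9.86 and 9.35 CPM against 17.1, 13.7 and 35.3 CPM. Thus components, the stabiliser properdin and an inhibitor were all among the genes called. The C3a and C5a receptors C3ar1 and C5ar1 were also called. Without animal 72, DESeq2 called 10 of the 16.

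Of 25 chemokine and cytokine genes, 17 had enough counts to be tested, and a gene with 10 or more counts only in the diabetes-exposed group passes that filter. DESeq2 called 6 of the 17 (Ccl2, Ccl6, Ccl7, Ccl9, Cxcl1 and Il33), against 1.01% of all genes called higher. Of the 17, 8 did not overlap, against 11.1% of all genes above, and the median log2 fold change was 0.39. Ccl9, whose start lies 14451 bases from that of Ccl6, was at 7.05, 4 and 7.14 CPM in unexposed and 32.5, 13.8 and 19.4 CPM in diabetes-exposed animals. For both chemokines animal 66 was the highest and animal 72 the lowest of the diabetes-exposed animals, and still above every unexposed animal. Il33, an alarmin released by damaged stromal cells, was at 4.13, 2.25 and 2.26 CPM against 5.47, 7.48 and 12.5 CPM, with a log2 fold change of 1.52 ± 0.35 (SE). Its change in Wt hearts was 1.27 on the log2 scale. Cxcl1 was at 0.857, 0.507 and 0.704 CPM against 1.26, 1.41 and 6 CPM, and animal 77 was far above the others.
Among 15 markers of recruited monocytes and neutrophils, 10 were tested, all with a higher mean and a median log2 fold change of 1.16. Their levels were low, with sums between 9.24 and 15.3 CPM in unexposed and between 25.6 and 32.1 CPM in diabetes-exposed animals. The filter could be passed through the diabetes-exposed group alone. In Wt hearts the sums were between 13.2 and 31.4 CPM without and between 15.6 and 21.6 CPM with maternal diabetes. The median in Wt was 0.003. In Hif1a+/- hearts DESeq2 called Itgam and Itgb2, the 2 chains of the integrin Mac-1, and Mmp9, and without animal 72 it called 2 of the list. Itgam was at 0.935, 1.29 and 1.46 CPM in unexposed and 3.08, 2.51 and 3.35 CPM in diabetes-exposed animals. S100a9, a calcium-binding protein of neutrophils, was at 0.623, 0.394 and 0.201 CPM against 3.21, 2.11 and 3.22 CPM. Its groups were apart, but some unexposed animals had under 10 counts of it. It passed the filter on low counts through the diabetes-exposed group, so S100a9 is given without a test. In the Wt animals it ranged from 0.455 to 10.2 CPM. Of 9 genes of MHC class II presentation 8 were tested and none was called. H2-Eb1 did not overlap and had a DESeq2 adjusted p of 0.222. Of 19 interferon response genes tested none was called either, with a DESeq2 adjusted p of 0.235 for Ifi27. Among 15 lymphocyte markers 3 were tested, and Blk, a kinase of B cells, was called lower, at 5.41, 4.73 and 6.03 CPM against 2.28, 1.72 and 4.01 CPM, though not without animal 72 (DESeq2 adjusted p = 0.221). No lymphocyte marker was called higher.

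**Figure D3:**
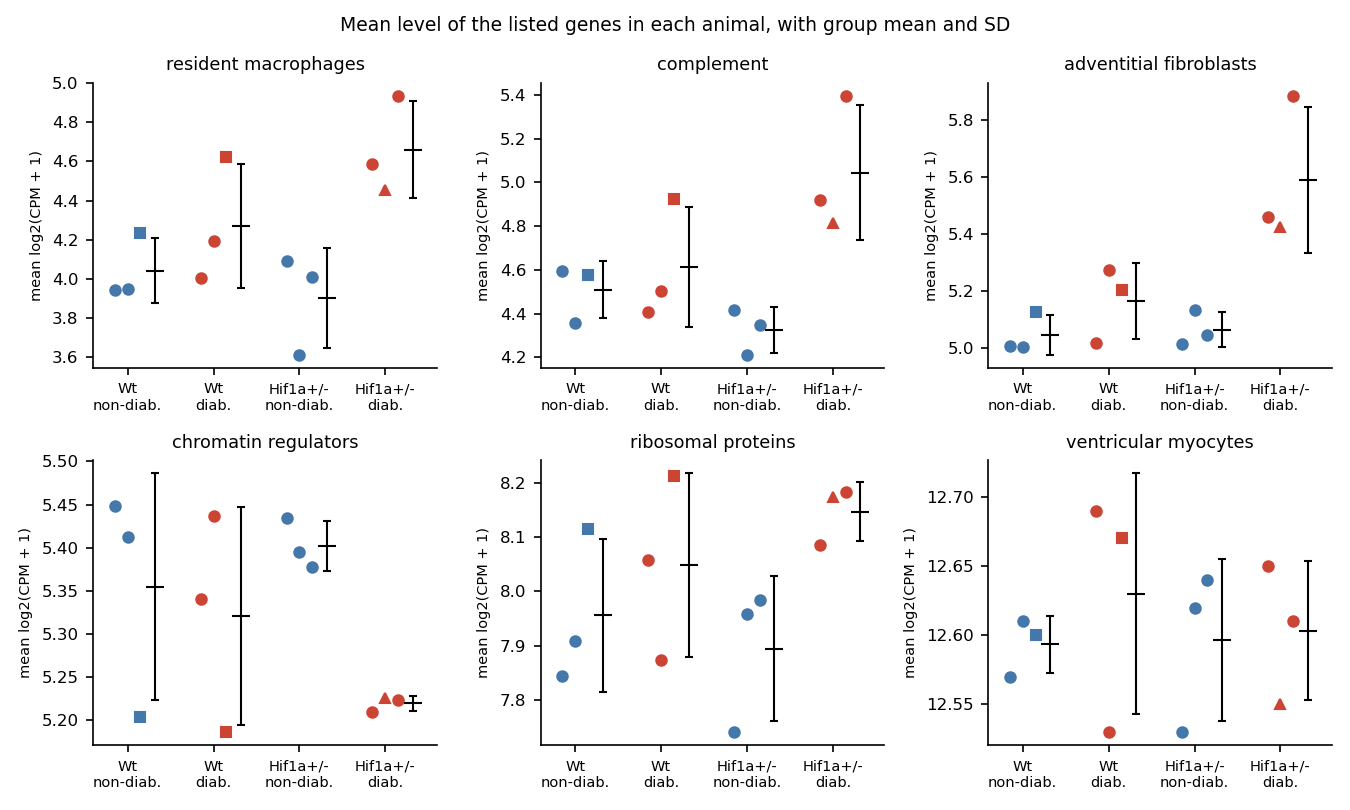
Mean of log2(CPM + 1) over the genes of 6 lists in each of the 12 animals, with the mean and SD of each group of 3 beside the points. The triangle is animal 72 and the squares are Wt animals 80 and 89. The macrophage, complement and adventitial fibroblast lists were higher in every diabetes-exposed Hif1a+/- animal than in any unexposed one, at 4.45 to 4.93 against 3.61 to 4.09 for macrophages, while the ventricular myocyte list overlapped.

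Adventitial fibroblasts lie around vessels and are marked by Pi16, Cd248 and matrix proteins of the elastic fibre. Of their 15 markers, 14 had a higher mean (Ackr3 did not) and 8 were without overlap, against 11.1% of all genes above. DESeq2 called 5, Pi16, Cd248, Mfap5, Clec3b and Dpt, against 1.01% of all genes called higher. The median log2 fold change was 0.48, and the summed level was between 779 and 863.9 CPM in unexposed and between 1050 and 1506 CPM in diabetes-exposed animals. Pi16, a secreted protein of this cell type, was at 56.1, 60.6 and 56.1 CPM against 146, 91.4 and 267 CPM. The unexposed animals were close together and the diabetes-exposed animals were not, which gave a log2 fold change of 1.54 ± 0.30 (SE; DESeq2 adjusted p = 0.00689). Mfap5, a microfibril protein, was at 24.3, 25.3 and 24.8 CPM against 43.3, 40.3 and 56 CPM. Without animal 72, DESeq2 called 6 of the 15. Interstitial fibroblast markers (14 tested) and myofibroblast markers (10 tested) held no call, with medians of 0.23 and 0.09.

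Of 27 genes of elastic fibre and other non-collagen matrix proteins, 23 had a higher mean (median log2 fold change 0.35). DESeq2 called 4 of the 27, against 1.01% of all genes called higher. They were Fbln1 and Fbln2, fibulins that bind elastic fibres and basement membranes, Mfap5 and Dpt. Fbln2 was at 137, 129 and 127 CPM in unexposed and 209, 164 and 173 CPM in diabetes-exposed animals, without overlap. Collagens differed less in these levels: of 17 genes none was without overlap, the median log2 fold change was 0.24, and only Col14a1 was called. With the trend over transcript length described below removed, 3 of the 17 were above without overlap, against 10% of all genes. Their median was then 0.33, and none was called. Col14a1 was at 14.7, 12.1 and 16.2 CPM against 15.6, 51 and 25.2 CPM, so animal 72 decided that call, and without that animal the DESeq2 adjusted p was 0.42. Col1a1, a chain of the main fibrillar collagen, was at 127, 150 and 180 CPM against 167, 276 and 188 CPM, and Col3a1 at 257, 302 and 366 CPM against 275, 560 and 422 CPM. Both overlapped between the groups and neither was called. The median over the collagens fell to 0.03 without animal 72, which was the highest animal for all 3 of these collagen genes.

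Enzymes that process the matrix and their inhibitors held 6 calls among 22 genes, against 1.01% of all genes called higher. The calls were 2 when animal 72 was left out. Beside Timp1 they included Mmp19, a metalloproteinase, at 2.1, 2.42 and 2.56 CPM in unexposed and 3.98, 3.74 and 3.93 CPM in diabetes-exposed animals. Adamtsl4, which promotes fibrillin microfibril assembly, had a ratio of means of 1.46 and Pcolce, which enhances the cleavage of procollagen, one of 1.36. In TGF-beta signalling 4 of 24 genes were called, beside the same share of all genes. They were Fstl1, a secreted glycoprotein of the injured heart, Tgfbr2, a TGF-beta receptor, Nbl1 and Sfrp1, a secreted Wnt antagonist, which was not called without animal 72 (DESeq2 adjusted p = 0.101). Tgfbr2 was at 61.8, 63.2 and 62.2 CPM against 79.8, 72.4 and 97.1 CPM, with a log2 fold change of 0.41 ± 0.10 (SE; DESeq2 adjusted p = 0.0255). The ligand Tgfb1 did not share this difference, at 32.2, 35.6 and 36.2 CPM against 32, 38.8 and 31.1 CPM (edgeR adjusted p = 0.927).

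Genes of oxidative stress held 5 calls among 31 genes, against 1.01% of all genes called higher. Of these 5 calls, 4 were for parts of NADPH oxidases, enzymes that make superoxide or hydrogen peroxide. Duox1, a dual oxidase on chromosome 2 from 122315672 to 122347972, was at 1.87, 1.8 and 2.06 CPM in unexposed and 4, 4 and 6.93 CPM in diabetes-exposed animals. Its maturation factor Duoxa1, with which it forms a head-to-head pair 1942 bases from start to start, was at 1.71, 1.75 and 1.51 CPM against 3.44, 2.29 and 6.62 CPM. In both genes animal 77 was the highest and no values overlapped, with log2 fold changes of 1.37 ± 0.24 (SE) and 1.30 ± 0.34 (SE). Ncf1, the cytosolic p47phox subunit of the phagocyte oxidase, was 1.7 times as high, and Ncf4 was the fourth. Txnip, a glucose-responsive inhibitor of thioredoxin, was at 243, 192 and 206 CPM against 433, 420 and 264 CPM. It was called with all animals (DESeq2 adjusted p = 0.0253) and not without animal 72, at 0.159.
Single calls in other lists were Vwf of endothelium, at 69.5, 67.5 and 79.6 CPM against 144, 118 and 117 CPM, Rrad of the fetal and stress genes, a small GTPase that restrains L-type calcium channels, and Aldh1a2 of the epicardium, which makes retinoic acid. Vwf and Rrad did not stand for their lists. A lower mean was seen for 11 of 15 endothelial and 9 of 13 fetal and stress genes, with medians of -0.05 and -0.13. Aldh1a2 was not called without animal 72 (DESeq2 adjusted p = 0.185), and the median of the 8 epicardial genes then went from 0.34 to -0.44. Rrad was at 164, 235 and 171 CPM against 338, 338 and 284 CPM, without overlap. Pecam1, a marker of all endothelium, was at 192, 205 and 191 CPM against 191, 209 and 199 CPM. Among 29 genes of the heat shock and unfolded protein response, Ddost, Rpn2 and Atf6b were called, with ratios of means of 1.2, 1.17 and 1.23, and none of the 29 was called without animal 72.

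Genes with a lower mean differed by less. Ivns1abp, a kelch-repeat protein that binds actin, had the smallest p among them. It was at 2434, 2513 and 2495 CPM in unexposed and 1796, 1802 and 1751 CPM in diabetes-exposed animals. The spread within each group was small beside the gap, with a log2 fold change of -0.48 ± 0.08 (SE), an edgeR adjusted p of 0.125 and a DESeq2 adjusted p of 2.31e-07, and its DESeq2 adjusted p without animal 72 was 4.17e-05. Nlrp10, a member of the NLR family without leucine-rich repeats, was at 36.8, 35.9 and 35.1 CPM against 29, 26.3 and 26 CPM. Syne1, which codes for nesprin-1 and links the nucleus to the cytoskeleton, was at 112, 106 and 106 CPM against 90.2, 76.4 and 82.2 CPM. Its log2 fold change of -0.38 ± 0.08 (SE) was -0.11 in the fit that removes the trend over transcript length described below. Clpx, the chaperone subunit of a mitochondrial protease, was lower by a log2 fold change of -0.38 ± 0.08 (SE) and Adssl1, the muscle enzyme of the purine nucleotide cycle, by -0.30 ± 0.07 (SE).
The largest changes among those with the smallest p were in lowly expressed genes. Scin, a calcium-dependent actin-severing protein, was at 3.47, 3.1 and 3.07 CPM against 0.975, 1.01 and 1.37 CPM. Luzp2 was at 1.17, 1.46 and 1.56 CPM against 0.411, 0.44 and 0.574 CPM. Neither overlapped between the groups, and their log2 fold changes were -1.53 ± 0.34 (SE) and -1.56 ± 0.32 (SE). The others were Ankrd28, a subunit of protein phosphatase 6, the ubiquitin ligases Herc3 and Arel1 and Zfp442, a zinc finger gene, with ratios of means between 0.532 for Zfp442 and 0.753 for Ankrd28.

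Ubiquitin ligases mark muscle proteins for the proteasome. Of 14 such genes, 6 were without overlap below the unexposed animals against 13.4% of all genes, and DESeq2 called 4 lower (Herc3, Arel1, Asb15 and Cul4a) and 1 higher (Asb11). The study lists all of these called genes as differentially expressed in the same libraries. The counts of this list are therefore a description and not independent support. Asb15, a substrate adaptor of striated muscle, was at 109, 88.5 and 98 CPM in unexposed and 75.7, 64.1 and 71.4 CPM in diabetes-exposed animals. Cul4a, a cullin scaffold, was at 150, 162 and 152 CPM against 129, 122 and 127 CPM. Without animal 72, DESeq2 called 1 of the 14 lower. Of 29 chromatin regulators, 25 had a lower mean and 14 were below without overlap, against 13.4% of all genes. DESeq2 called Kdm3a, Kdm5a, Setd2 and Chd4, against 0.428% of all genes called lower. The study lists these called chromatin genes as well, so the same limit holds. Kdm3a, a histone H3 lysine 9 demethylase and itself a HIF-1 target, was at 36.2, 35.3 and 38.4 CPM against 27.5, 26.2 and 26.4 CPM. Chd4, the ATPase of the NuRD complex, was at 231, 235 and 220 CPM against 171, 192 and 190 CPM. Without animal 72, DESeq2 called 1 of the 29. Splicing kinases and RNA processing genes held no call among 28, but 10 were below without overlap, against 13.4% of all genes. Among these 10 were Clk1, a splicing kinase, and Pcf11, a factor of transcript cleavage.

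Many genes of excitation and contraction had a lower mean by small amounts. Some of these differences were smaller after a trend over transcript length was removed, as given below. Their cause was not tested. Of 23 ion channel and junction genes, 8 were below without overlap, against 13.4% of all genes, and 1 was called lower. This was Pkp2, a desmosomal protein of the intercalated disc, at 237, 252 and 249 CPM in unexposed and 198, 210 and 202 CPM in diabetes-exposed animals. Kcnab2, a potassium channel subunit, was called higher. Gja1, which codes for connexin 43, the main gap junction protein of the ventricle, was at 669, 830 and 948 CPM against 632, 569 and 666 CPM. The highest diabetes-exposed animal was just below the lowest unexposed one, and the edgeR adjusted p was 0.368. Of 18 calcium handling genes 6 were below without overlap, against the same 13.4%, and none was called. Of the adrenergic and other vasoactive receptor genes Adra1a, an alpha-1 adrenergic receptor, was called, at 28.7, 25.9 and 24.7 CPM against 19.6, 14.6 and 18.4 CPM. Without animal 72 it was not called (DESeq2 adjusted p = 0.159). Smooth muscle and pericyte genes had a median log2 fold change of -0.21 over 15 genes, with 10 lower and 5 higher means. Without overlap were 5 below and 1 above, against 13.4% and 11.1% of all genes. Their summed level overlapped, between 4628 and 4826 CPM in unexposed and between 4609 and 4836 CPM in diabetes-exposed animals. With the trend over transcript length removed, their median was -0.12 and DESeq2 called 1 of them lower. Myh11, the myosin of smooth muscle, was at 26.2, 29 and 30.4 CPM against 17.6, 15.5 and 16.9 CPM and Myocd, the coactivator that drives that programme, at 47.5, 51.2 and 52.5 CPM against 31.9, 33.9 and 35.2 CPM. Both were called by DESeq2 with all animals (adjusted p = 0.0962 and 0.0889) and not without animal 72. Ventricular myocyte genes held no call. Ttn, the giant spring protein of the sarcomere, was at 5640, 5497 and 5117 CPM against 4994, 3966 and 4062 CPM. Tnni3, cardiac troponin I, had a ratio of means of 1.14.

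Transcript length moved with the comparison. Among 13161 protein-coding genes in 4 groups of equal size by longest annotated transcript, those with the shortest (up to 2039 bases) had a median log2 fold change of 0.11, with 24.1% of genes above and 3.04% below without overlap. The group with the longest (4733 bases or more) had a median of -0.12, with 3.86% above and 27.8% below. In single animals, the median log2 ratio of the shortest group to the unexposed mean exceeded that of the longest group by 0.18, 0.245 and 0.239 in the diabetes-exposed animals, and by -0.04, 0.01 and 0.03 in the unexposed ones. The difference was larger in Wt animal 89 from non-diabetic pregnancy (0.281) and Wt animal 80 from diabetic pregnancy (0.362), while the 4 other Wt animals were between -0.09 and 0.10. Of these 2 Wt animals, 1 came from each kind of pregnancy. Before any removal of the trend, the median log2 fold change of a list ran with its length in some lists and not in others. The chromatin regulators had a median transcript length of 7916 bases, the ribosomal protein genes 1057 and the respiratory chain subunits 1026, against 3202 over all. The collagens had long transcripts (5930) and a positive median log2 fold change of 0.24, insulin and IGF genes were long (6458) with a median near 0, and atrial myocyte genes were short (1318) with a median of -0.24. With the trend removed as described next, the medians of these lists were 0.33, 0.07 and -0.27, so lists that did not run with length could still carry the trend.
When the smooth trend over length was removed from each library by offsets, a step added after the pattern was seen, DESeq2 called 152 genes higher (1.15%) and 45 lower (0.342%). These held 118 of the 146 genes called higher and 34 of the 62 called lower before. Without overlap were then 1321 genes above (10%) and 1265 below (9.61%). DESeq2 then called 15 of 25 macrophage markers (14 before), 8 of 16 complement genes (7), 5 of 17 chemokine genes (6), 6 of 15 adventitial markers (5), 5 of 27 elastic fibre genes (4) and 0 of 17 collagens (1). The collagens nevertheless went from 0 to 3 genes above without overlap, with their median from 0.24 to 0.33. The ribosomal protein list went from 26 to 10 of 30 genes above, the respiratory chain list from 26 above and 1 below to 7 above and 10 below among 54 genes, and the chromatin list from 14 to 10 of 29 genes below with 1 call. Among the ubiquitin ligases 4 genes were called lower, as before, and 0 higher in place of 1. The calcium handling list went from 6 to 2 of 18 genes below, with its median from -0.09 to 0.01, and the ion channel and junction list from 8 to 4 of 23 below, with its median from -0.08 to -0.05. The log2 fold change of Ttn went from -0.32 to -0.0025.

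**Figure D4:**
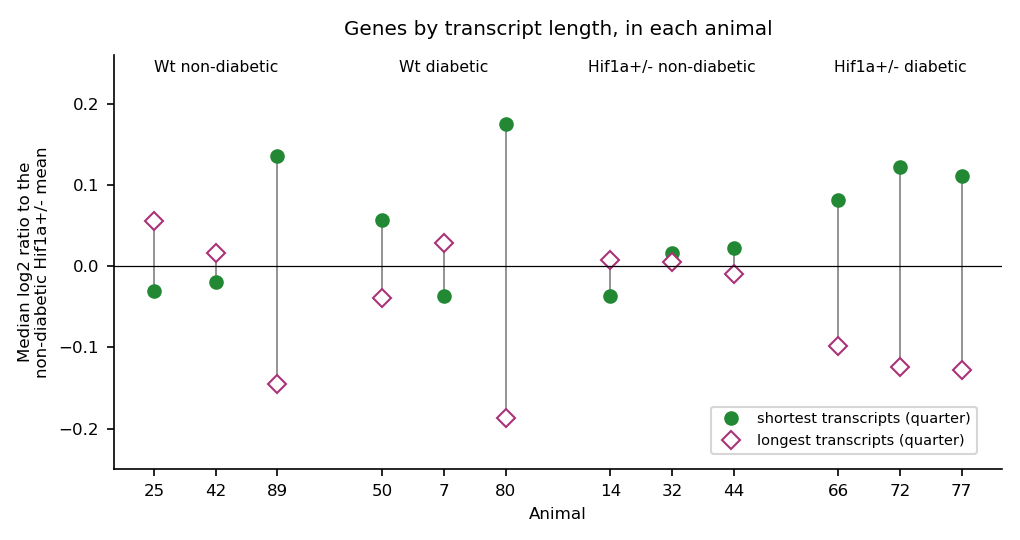
For each of the 12 animals, the median log2 ratio of CPM to the mean of the 3 non-diabetic Hif1a+/- animals, over the group of genes with the shortest transcripts (filled circles) and the group with the longest (open diamonds). The 2 medians lie far apart in the 3 diabetes-exposed Hif1a+/- animals and in Wt animals 89 and 80, and close together in the other 7 animals.

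Genes that HIF-1 activates did not share a direction. Of 39 classical targets, 23 had a higher and 16 a lower mean, 3 were above and 4 below without overlap, and the median log2 fold change was 0.04, so the shares were under those of all genes. Kdm3a was the only target called with all animals (DESeq2 adjusted p = 0.0987, and 0.296 without animal 72). Without animal 72, the transferrin receptor gene Tfrc, which overlapped with all animals, was called higher (0.0585). Pdk1, the kinase that shuts pyruvate out of mitochondria, was at 414, 465 and 387 CPM in unexposed and 346, 351 and 351 CPM in diabetes-exposed animals. In contrast, the glycolytic enzyme Eno1 was at 85.9, 83.9 and 93.3 CPM against 106, 96.4 and 108 CPM, and the lactate exporter Slc16a3 had a ratio of means of 1.36. Vegfa, the main growth factor for vessels, was at 284, 396 and 564 CPM against 317, 277 and 218 CPM. Its mean was lower by a log2 fold change of -0.62 ± 0.33 (SE), the groups overlapped, and the spread of the unexposed animals alone covered the difference (edgeR adjusted p = 0.455). Ldha, lactate dehydrogenase A, was at 823, 842 and 883 CPM against 995, 850 and 954 CPM. The 13 HIF subunit and oxygen sensor genes held no call.

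Metabolic lists held no call. Glycolysis, glycogen and pyruvate genes (35) had a median log2 fold change of 0.01, with Pfkfb2, a heart isoform of the enzyme that makes fructose 2,6-bisphosphate, at 57.5, 53.9 and 65.5 CPM against 41.6, 41.8 and 47 CPM and Pdha1, a subunit of pyruvate dehydrogenase, at 1081, 1169 and 1110 CPM against 943.9, 925 and 888.8 CPM. Both were without overlap and not called. Fatty acid genes (42) had a median of -0.06, with 7 below and 3 above without overlap. Over all genes 13.4% were below and 11.1% above, near the shares of this list. Hadhb, a subunit of the mitochondrial trifunctional protein, was at 1392, 1577 and 1479 CPM against 1308, 1248 and 1326 CPM. Cd36, the fatty acid transporter, overlapped at 2191, 2584 and 2098 CPM against 2353, 2038 and 2112 CPM (log2 fold change -0.08 ± 0.11, SE). Respiratory chain subunits (54) were above without overlap in 26 cases and had a median of 0.12, as described for short transcripts. Atp5e, a small subunit of ATP synthase was at 435, 538 and 497 CPM against 591, 715 and 646 CPM, and Ndufs1, the largest subunit of complex I, at 842, 832 and 845 CPM against 746, 721 and 688 CPM. Ribosomal protein genes all had a higher mean, by a median of 0.26, and DESeq2 called Rpsa and Rpl8, of which Rpl8 was not called without animal 72 (DESeq2 adjusted p = 0.226). Tnfrsf1b, which codes for TNF receptor 2, was at 11.9, 11.6 and 15 CPM against 12.4, 14.6 and 18.9 CPM, overlapping. Insulin and IGF signalling held 2 calls among 28 genes, Igfbp4 higher and Rps6kb1, the S6 kinase, lower, the latter not without animal 72 (DESeq2 adjusted p = 0.234). The circadian clock list had neither a call nor a gene without overlap among 18.

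**Figure D5:**
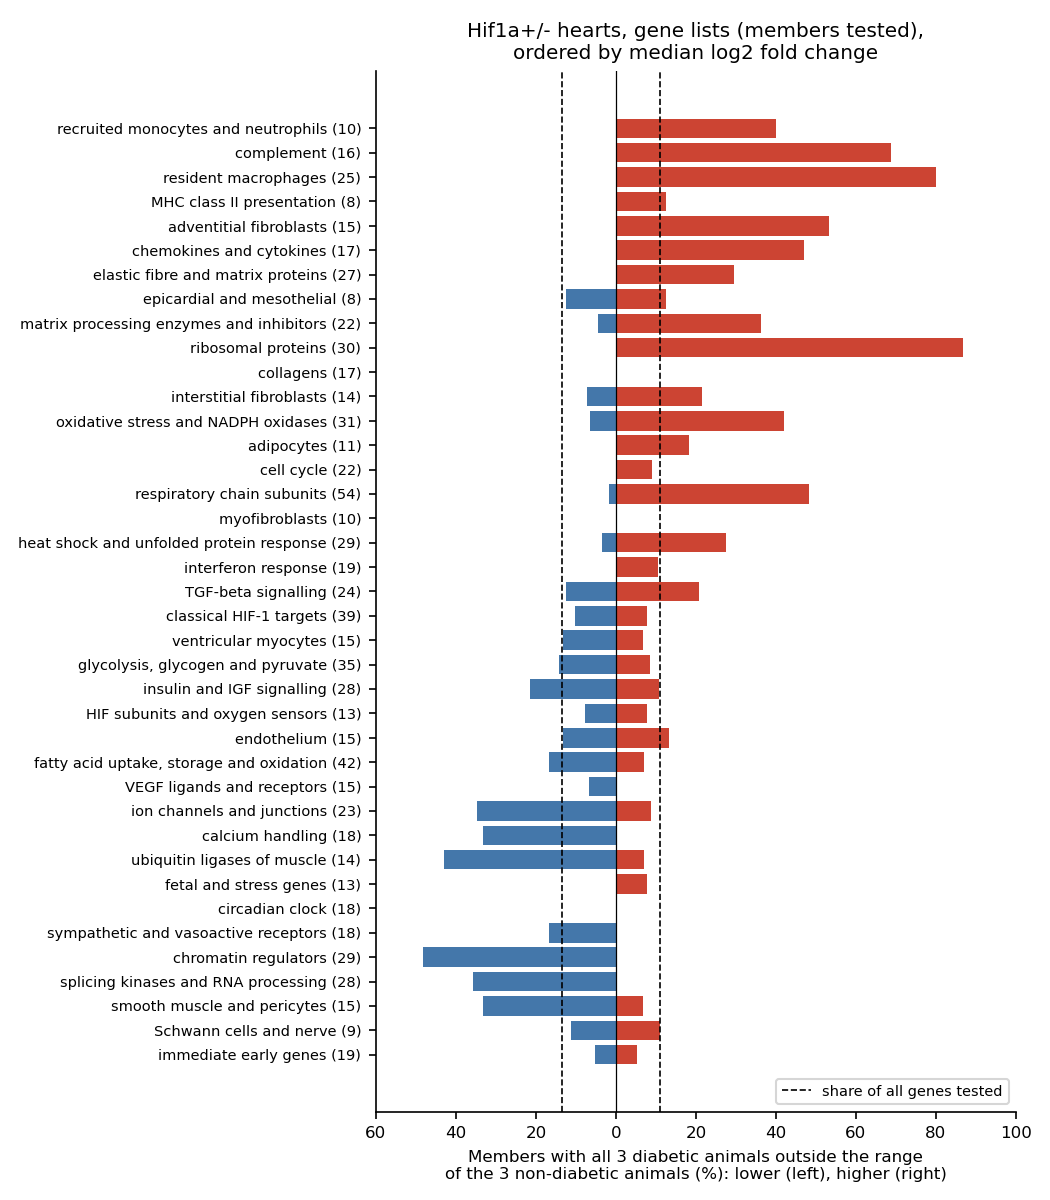
For each gene list with 8 or more members tested, the percentage of members for which all 3 diabetes-exposed animals were above (red, right) or below (blue, left) all 3 unexposed animals, with the number tested in brackets. Dashed lines are the shares of all 14471 genes, 11.1% above and 13.4% below. Macrophage, complement and ribosomal protein lists reach furthest to the right and chromatin regulators and ubiquitin ligases furthest to the left.

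The comparison in Wt hearts shares no sample with the comparison in Hif1a+/- hearts. There, edgeR called 0 genes with a smallest adjusted p of 1. It called 0 genes in Hif1a+/- hearts as well. DESeq2 counts are not given for Wt hearts, so the numbers of DESeq2 calls cannot be compared between the genotypes. In Wt hearts all 3 diabetes-exposed animals were above all 3 unexposed ones for 315 genes (2.18%) and below for 494 (3.41%), or 5.59% in all. Across the 14471 genes, the 2 log2 fold changes had a Spearman coefficient of 0.312, given as a description, since genes are not independent and the trend over length runs through both. Of the 146 genes called higher in Hif1a+/- hearts, 121 had a higher mean in diabetes-exposed Wt hearts too, by a median log2 fold change of 0.14, and 17 were without overlap there. Of the 62 called lower, 58 had a lower mean in Wt, by a median of -0.15, and 12 were without overlap. Over all genes, 7485 had a higher and 6986 a lower mean in Wt. The median in Wt was 0.27 for macrophage markers, 0.14 for complement and 0.16 for adventitial markers, against 0.90, 1.00 and 0.48 in Hif1a+/- hearts.
Whether the difference itself depended on genotype was tested as an interaction. By edgeR, 0 genes (0%) passed, with a smallest adjusted p of 0.998, and 368 had an unadjusted p under 0.05, or 2.54%. DESeq2 called 4 genes (0.0276%), 3 with a higher (0.0207%) and 1 with a lower fold change (0.00691%) in Hif1a+/- hearts, which were Duox1, Fbn1, Ivns1abp and Txnip. Fbn1, the fibrillin that forms microfibrils, was at 88, 89 and 88.7 CPM in unexposed and 117.5, 107 and 145 CPM in diabetes-exposed Hif1a+/- hearts, and at 74, 87.5 and 98.7 CPM in unexposed and 47.2, 73.7 and 56.4 CPM in diabetes-exposed Wt hearts. The groups were thus apart in opposite directions in the 2 genotypes, in Wt hearts only just, at 73.7 against 74 CPM. Without Wt animals 80 and 89, DESeq2 called an interaction for 0 genes. Of the macrophage markers 8 of 25, of the complement genes 8 of 16 and of the adventitial markers 7 of 15 had an unadjusted interaction p under 0.05, all toward a higher fold change in Hif1a+/- hearts, as did 1.52% of all genes. None of them but Fbn1 was called.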

How the data were processed

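The authors trimmed the reads with Trimmomatic, took out ribosomal RNA and mitochondrial reads with SortMeRNA, mapped the remainder to GRCm38 with STAR 2.5.2b and ran HTSeq on GENCODE M8. The deposited counts are raw whole-number counts per gene. The tally lines closing each file were left out, among them reads that mapped to several places, 12.4% to 17% of all counted and uncounted reads in a file, so values of near-identical paralogs are uncertain. The deposited normalized counts were not used. Symbols and coordinates came from GENCODE M21 of GRCm38, which matched 46488 of 46983 genes.

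Counts were tested with edgeR 4.0.16 (R 4.3.3): TMM scaling, the quasi-likelihood test, 12 samples in 1 fit with a mean for each of 4 groups, and Benjamini-Hochberg adjustment with a threshold of 0.1. The SE was the log2 fold change divided by the square root of F. A first run used the newer version of the quasi-likelihood fit. The package default replaced it after both had been seen to call 0 genes. The biological coefficient of variation was 13.7%, with 8 residual degrees of freedom. Animals within each Hif1a+/- group differed beyond counting noise, with a chi-square per gene of at least 5.35. An exact permutation test of 3 animals against 3 cannot go below 0.1 and was not used. The alternatives were DESeq2 1.42.0, limma 3.58.1, other filters, scalings and thresholds, and leaving out animals. The tests were also run on simulated counts with the same dispersion for all genes and no trend over transcript length. That run cannot show which test suits these data.

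The genes named were Hif1a, the 12 protein-coding genes with the smallest edgeR p in each direction, up to 4 genes of each list with the smallest p, and genes the study measured. Of the genes with a lower mean, 1 is not reported here. The other genes named, such as Fbn1, Tfrc and further DESeq2 calls of a list, were chosen after their values were seen. The comparison and the 43 lists were chosen with earlier results of these data known. The study's own list of differentially expressed genes comes from the same libraries. It holds every gene named as called in the ubiquitin ligase, chromatin, TGF-beta, oxidative stress and unfolded protein lists. The same is true of the complement, chemokine, adventitial and elastic fibre lists, and of the macrophage genes Lyz2, Pf4 and Laptm5. The counts of such lists beside the share of all genes are therefore a description and not a test. Python 3.11.15 and matplotlib 3.10.9 made the tables and figures.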

Additional observations from a re-analysis of the deposited data

Results flagged for a closer look

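DESeq2 called an interaction between genotype and pregnancy for 4 genes, a test of whether the log2 fold change with maternal diabetes differs between Hif1a+/- and Wt hearts. By edgeR and by limma-voom 0 genes were called, and DESeq2 without Wt animals 80 and 89 called 0 as well. For Duox1 the change in Hif1a+/- hearts exceeded that in Wt hearts by 1.73 ± 0.354 on the log2 scale (edgeR estimate and SE), with an unadjusted edgeR p of 0.000274 and a DESeq2 adjusted p of 0.0876. For Fbn1 it exceeded it by 1.03 ± 0.219, with an unadjusted edgeR p of 0.000391 and a DESeq2 adjusted p of 0.0428. For Txnip it exceeded it by 1.38 ± 0.301, with an unadjusted edgeR p of 0.000499 and a DESeq2 adjusted p of 0.0428. For Ivns1abp the difference was -0.446 ± 0.113, with an unadjusted edgeR p of 0.00163 and a DESeq2 adjusted p of 0.0428. The edgeR adjusted p was 0.998 for each of the 4.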

How the results depend on the processing

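The number of genes called was the result most open to the processing. In place of 0 genes higher, 0 lower and 0 with an interaction by edgeR, DESeq2 gave 146, 62 and 4, limma-voom with sample quality weights 488, 518 and 0, edgeR on the 6 Hif1a+/- samples 43 and 56, and edgeR without a filter on low counts 380, 212 and 78. DESeq2 with length offsets gave 152, 45 and 4, DESeq2 on the 6 samples 403 and 414, edgeR without Wt animals 80 and 89 gave 90, 125 and 0, and DESeq2 without them 356, 370 and 0. Leaving out 1 animal at a time, edgeR gave 0 to 37 genes higher, 0 to 1 lower and 0 to 1 with an interaction, with the highest counts without animal 72 for the first 2. DESeq2 gave 34 to 146 higher (86, 34 and 72 without animals 14, 32 and 44, and 132, 146 and 51 without 66, 72 and 77). In the same order it gave 33, 9, 22, 64, 25 and 41 lower and 1, 0, 0, 1, 12 and 1 with an interaction, which numbered 2, 4, 0, 0, 8 and 0 without Wt animals 25, 42, 89, 50, 7 and 80. Other size factors, a robust fit, the default filter, 10 counts in every sample, a threshold of 0.05, the newer quasi-likelihood fit and edgeR with length offsets gave 0 in each case. The alternatives with length offsets, without animals 80 and 89, of DESeq2 with fewer samples and of the newer fit were chosen after seeing the data. The cause of these differences was not tested. Of 1559 fold changes of 98 of the named genes under alternatives, 1219 kept their direction and side of the threshold, 335 passed it and 5 changed sign. These were Cd36 without animal 32 (0.0155, in a range of -0.141 to 0.0155 when 1 animal was left out), Tgfb1 without animals 44 (0.0013), 66 (0.0114) and 77 (0.0268, range -0.130 to 0.0268), and Pecam1 without animal 72 (-0.00131, range -0.00131 to 0.0603). No paired analysis was possible because no animal number occurs in more than 1 group and the biological replicate number in the labels is the same for all 3 animals of a group. Within the Hif1a+/- groups the chi-square per gene between animals was 5.35 or more, where counting error alone gives about 1, so animals differed by more than depth accounts for.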
